A study of Rattus norvegicus with 6 samples.

Results

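The miR-148 and miR-152 family comprises 3 microRNA hairpins, miR-148a, miR-148b and miR-152, each of which can give a 5p and a 3p arm. All rows whose names begin with one of these 3 hairpins were taken, and this gave 6 arms among 764 rat miRNA entries (rno-miR-148a-3p, rno-miR-148a-5p, rno-miR-148b-3p, rno-miR-148b-5p, rno-miR-152-3p and rno-miR-152-5p). They were measured by small RNA sequencing of tissue labelled testicle from male Sprague Dawley rats. The HO-1 knockout group (3 libraries) lacked HO-1, heme oxygenase 1, the stress-inducible enzyme that degrades heme, and the WT group (3 libraries) carried the gene. Small RNA reads do not measure the HO-1 transcript, so the genotype labels could not be checked on it. Both genotypes had the left testis twisted by 720° for 2 h and were sampled after 3 days of reperfusion, so neither group was uninjured. Age and the way the deletion was made were not stated. The labels do not say that each library came from its own animal, so p-values measure the spread between libraries only.

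A microRNA guides an Argonaute protein to messenger RNAs, mainly through its seed (bases 2 to 8), and lowers their stability and translation. The 3p arm is known as the main guide strand of this family, and the 5p arm as the strand that is mostly discarded. miR-148a is known as an abundant miRNA of liver, where work in mouse and human linked it to the LDL receptor and the cholesterol exporter ABCA1. In human cells, members of the family were shown to repress DNA methyltransferases.

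RefSeq (build GRCr8) held mature sequences for 5 of the 6 arms. The 3p arms are shown because they carry nearly all reads of the family and share 1 seed, which stands in capitals, 5′ to 3′:
rno-miR-148a-3p: uCAGUGCAcuacagaacuuug
rno-miR-148b-3p: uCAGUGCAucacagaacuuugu
rno-miR-152-3p: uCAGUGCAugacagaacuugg

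Counted from 1 at the 5′ end and with the base of miR-148a-3p first, miR-148b-3p differed from miR-148a-3p by C9U and U10C over 21 compared bases. On the same count miR-152-3p differed from miR-148a-3p by C9U, U10G and U20G. None of the other mature rat miRNAs in that table, which holds 693 in all, had the seed CAGUGCA. The 3p arms are thus close enough in sequence that the rule for mismatched reads matters, and that rule was not stated. Whether reads of the abundant miR-148a-3p were counted under the other 3p arms was not tested.

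The 5p arms of miR-148a and miR-152 did not share a seed, and they are shown to mark the strand whose share is described further on:
rno-miR-148a-5p: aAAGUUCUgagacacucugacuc
rno-miR-152-5p: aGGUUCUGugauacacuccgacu
In the hairpin of miR-148a, printed to show how both arms lie in 1 precursor, capitals mark the 5p arm and then the 3p arm:
mir-148a hairpin: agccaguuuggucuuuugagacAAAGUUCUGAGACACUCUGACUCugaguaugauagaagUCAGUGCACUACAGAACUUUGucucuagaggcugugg
In the RefSeq table the 3 precursors lay on chromosomes 4 (miR-148a), 7 (miR-148b) and 10 (miR-152). The precursor of miR-148b lay inside Copz1 and that of miR-152 inside Copz2, genes that encode zeta subunits of the COPI vesicle coat. The precursor of miR-148a lay inside no gene of that table.

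Values were reads per 1000000 assigned miRNA reads (RPM), and 570 entries had a value above 0 in some library. Library totals, recovered from the size of 1 read, were 8300536 to 9809055 reads in the knockout and 9128924 to 10042673 reads in WT. Marker levels went against the label testicle in all 6 libraries. miR-122-5p, the defining miRNA of hepatocytes, held 40.2% to 46.4% of the reads in knockout libraries and 32.7% to 36.6% in WT libraries. A list of 18 germ cell and gonad miRNAs, of which 17 matched a row, summed to 28.9 to 33.5 RPM in the knockout and 39.4 to 55.6 RPM in WT, with 4 rows at 0 in every library. All values below are shares of such mixtures, and in bulk tissue fewer cells of a type cannot be told apart from less RNA per cell.

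The family was one of the main components of every library, and nearly all of it was miR-148a-3p. Its summed share was 8.81%, 11.0% and 9.37% of the reads in knockout libraries 1 to 3, against 12.1%, 10.7% and 12.1% in WT libraries 1 to 3. Knockout library 2 lay above WT library 2, so the groups overlapped. The means were 9.73% ± 1.14 in the knockout and 11.6% ± 0.84 in WT (SD, n = 3 each). The difference of -1.90 percentage points did not pass an exact two-sided permutation test (p = 0.2), in which 3 against 3 libraries cannot go below 0.1. Wilson 95% intervals of these shares were at most 0.0415 points wide and cover counting error only. When miR-122-5p was left out of the totals, the family held 17.2% ± 1.09 in the knockout and 17.9% ± 1.19 in WT (exact p = 0.5, n = 3 each).

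miR-148a-3p was the second most abundant miRNA of the series, after miR-122-5p and before miR-21-5p. Its level was 85715, 106838 and 91124 RPM in knockout libraries 1 to 3, against 117949.7, 103636 and 118627 RPM in WT libraries 1 to 3. Knockout libraries 1 and 3 lay below every WT library, while knockout library 2 lay above WT library 2. Across the 6 libraries its range did not touch that of either neighbour, since miR-122-5p was never under 326912 RPM and miR-21-5p never over 80509.6 RPM. Within the family, miR-148a-3p made up 97.2% ± 0.11 of the reads in the knockout and 97.5% ± 0.36 in WT (SD, n = 3 each; exact two-sided permutation p = 0.3), and without WT library 3 the difference of -0.29 points became -0.087 points.

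miR-152-3p, which shares the seed of miR-148a-3p and is known as a repressor of DNA methyltransferase 1 in human cells, came next in the order of means. It had 1027, 1386 and 1070.3 RPM in knockout libraries 1 to 3, against 1285, 1000.1 and 963 RPM in WT libraries 1 to 3. The groups overlapped, and the highest value of each genotype stood apart from its other two. miR-148b-3p, the remaining 3p arm with this seed, had 700.1, 1029 and 804 RPM in knockout libraries 1 to 3. In WT libraries 1 to 3 it had 1010.3, 1095 and 841 RPM. Its groups overlapped as well, with knockout library 2 inside the WT range. miR-152-3p exceeded miR-148b-3p in every library except WT library 2, although the ranges of these arms across libraries overlapped within each genotype. Within single libraries the ratio of miR-148b-3p to miR-152-3p was 0.68 to 0.75 in the knockout and 0.79 to 1.09 in WT. Their order was thus the same in all knockout libraries but not in all WT libraries.

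The 5p arm of miR-148a lay below the 3p arms of the other hairpins in every library. Its mean over the 6 libraries was 738 RPM, against 913 RPM for miR-148b-3p and 1122 RPM for miR-152-3p. miR-148a-5p had 648, 757 and 634 RPM in knockout libraries 1 to 3, against 859.9, 828 and 703 RPM in WT libraries 1 to 3. Knockout libraries 1 and 3 lay below every WT library and knockout library 2 lay between WT values. The ranges of miR-148a-5p and miR-148b-3p also overlapped in each genotype, although miR-148a-5p was the lower of the pair in every library.

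The remaining 5p arms were rare, at 62 to 146 reads per library for miR-148b-5p and 87 to 137 reads for miR-152-5p. miR-148b-5p had 12.65, 14.9 and 14.2 RPM in knockout libraries 1 to 3, against 10.85, 10.3 and 6.54 RPM in WT libraries 1 to 3. Every knockout library was above every WT library. miR-152-5p had 11.9, 12.5 and 15.2 RPM in knockout libraries 1 to 3, against 13.3, 9.97 and 9.18 RPM in WT libraries 1 to 3, and these groups overlapped. The order of these rare arms changed from library to library. Levels of different arms also carry the efficiency with which the kit's ligases join each sequence, which was not measured.

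**Figure D1:**
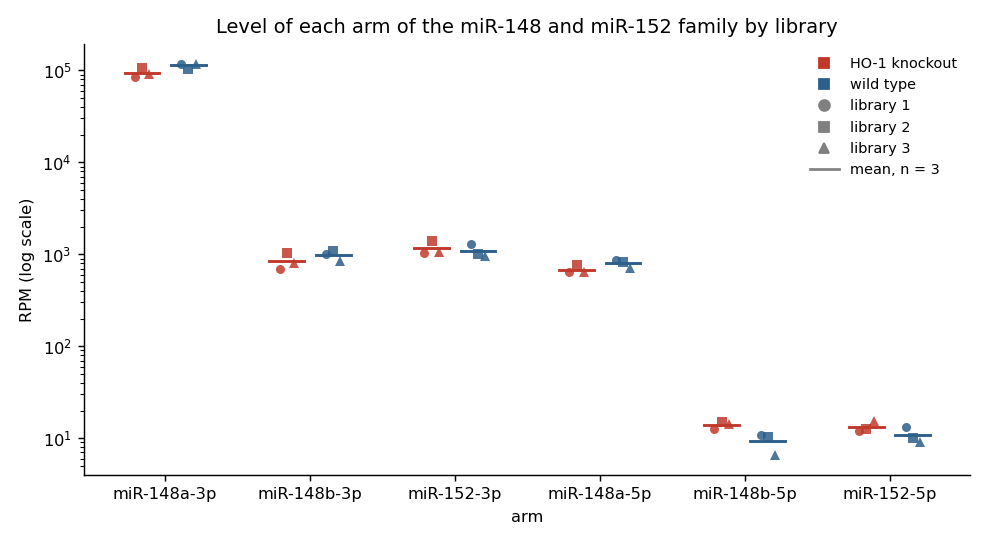
RPM of each arm on a log axis, with 1 symbol per library (circle, square and triangle for libraries 1, 2 and 3), red for HO-1 knockout, blue for wild type, and a bar at the mean of 3 libraries. miR-148a-3p lies at 85715 to 118627 RPM, 3 arms lie between 634 and 1386 RPM, and miR-148b-5p and miR-152-5p lie between 6.54 and 15.2 RPM.

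The abundance neighbours of the other arms lay within overlapping ranges. miR-152-3p stood between miR-103-3p and miR-27a-3p, with means of 1297 and 1112 RPM over the 6 libraries. miR-148b-3p stood between miR-181a-5p and miR-25-3p, with means of 1005 and 898 RPM, and miR-148a-5p between miR-126a-5p and miR-16-5p, with means of 778 and 722 RPM. The rare arms lay among miR-192-3p, miR-3068-5p and miR-190b-5p, with means of 12.5, 11.7 and 11.5 RPM.

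Likeness of pattern was described by Pearson's r of log2(RPM + 1) over the 6 libraries, among 116 miRNAs outside the family with a mean of at least 100 RPM. The libraries share their totals, and the leading r values were picked from many candidates over few points. miR-148a-3p was most like miR-455-3p (r = 0.95), miR-99a-5p (r = 0.92) and miR-194-5p (r = 0.92). miR-148b-3p was most like miR-150-5p, miR-339-5p and miR-122-3p, with r between 0.90 and 0.92. miR-152-3p was most like miR-107-3p, miR-328a-3p and let-7d-3p, with r between 0.79 and 0.85. Within the family, miR-148a-3p had r = 0.63 with miR-148b-3p and r = 0.26 with miR-152-3p.

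Between genotypes, none of the 6 arms passed the test. limma on log2(RPM + 1) over all 570 entries called 36 miRNAs, 6.32% of those tested, at a Benjamini-Hochberg adjusted p below 0.05. Of these, 4 were higher and 32 lower in the knockout, a split that became 20 higher and 29 lower with TMM scaling, which called 8.6% of the entries and 1 arm, miR-148b-5p. At an unadjusted p below 0.05, limma had 2 of the 6 arms, miR-148a-3p and miR-148b-5p, in opposite directions, beside 110 of the 570 entries (19.3%). edgeR's quasi-likelihood test on the recovered reads called 1 arm, miR-148b-5p, and DESeq2 called 2, miR-148b-5p and miR-152-3p. Those tools called 10.7% and 12.6% of all entries. DESeq2 ran with its default filter of low-count entries, so its adjustment covered fewer than 570 entries. Its share of calls among the entries it adjusted is therefore higher than 12.6%.

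miR-148a-3p averaged 94559 ± 10972 RPM in the knockout and 113404 ± 8466 RPM in WT (SD, n = 3 each). Its log2 change was -0.27 (SE 0.11, 95% interval -0.51 to -0.02, limma adjusted p = 0.21). The median log2 change of the 218 miRNAs of at least 10 RPM was -0.29, so the most abundant arm differed by about as much as the typical miRNA. With TMM scaling the median lay 0.21 higher, at -0.07, and miR-148a-3p at -0.04 (limma adjusted p = 0.89). Beside this, miR-122-5p took 43.4% ± 3.07 of the reads in the knockout and 35.2% ± 2.15 in WT (SD, n = 3 each). Without miR-122-5p in the totals, the log2 change of miR-148a-3p was -0.07 (limma adjusted p = 0.72).

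miR-148b-3p averaged 845 ± 168 RPM in the knockout and 982 ± 129 RPM in WT, and miR-148a-5p 679.9 ± 67.3 RPM in the knockout and 797 ± 83.2 RPM in WT (SD, n = 3 each). Both had a log2 change of -0.23 on RPM, and both turned to 0.01 with RLE scaling. Their limma adjusted p values were 0.47 (95% interval -0.61 to 0.16) for miR-148b-3p and 0.34 (95% interval -0.51 to 0.06) for miR-148a-5p. Relative to the median of miRNAs of at least 10 RPM, each of these arms was displaced by 0.06 on the log2 scale, and miR-148a-3p by 0.02.

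miR-152-3p was the 3p arm with a positive log2 change on RPM, of 0.10 (SE 0.16, 95% interval -0.27 to 0.47, limma adjusted p = 0.71). It averaged 1161 ± 196 RPM in the knockout and 1083 ± 176 RPM in WT (SD, n = 3 each). Relative to the median it was displaced by 0.39 on the log2 scale. With TMM scaling its log2 change was 0.32 (limma adjusted p = 0.12), and in DESeq2 on recovered reads it was 0.34 with an adjusted p of 0.048, the smallest over its alternatives, whose adjusted p reached 0.95. Without knockout library 2, which held its highest value, the sign turned to -0.03 (limma adjusted p = 0.91).

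Of the 6 arms, miR-148b-5p differed most on RPM. It averaged 13.9 ± 1.15 RPM in the knockout and 9.23 ± 2.35 RPM in WT (SD, n = 3 each), 1.51-fold higher. Its log2 change was 0.57 (SE 0.24, 95% interval 0.004 to 1.14) and did not pass (limma adjusted p = 0.26). Among all 570 entries, 26% had groups that did not overlap, counting both directions. In 4.39% every knockout library lay above every WT library, as for this arm. It passed with TMM scaling (log2 change 0.78, limma adjusted p = 0.041) and in edgeR on the recovered reads (log2 change 0.82, adjusted p = 0.020). Over its alternatives the adjusted p ran from 0.0059 to 0.46. WT library 3 had the lowest value with 62 reads, and without it the log2 change was 0.36 (limma adjusted p = 0.32).

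miR-152-5p averaged 13.2 ± 1.76 RPM in the knockout and 10.8 ± 2.21 RPM in WT (SD, n = 3 each). Its log2 change was 0.28 (SE 0.23, 95% interval -0.25 to 0.80, limma adjusted p = 0.52), and it passed under no alternative, with adjusted p between 0.11 and 0.78. Over the 6 arms the median log2 change was -0.06, beside -0.29 over the miRNAs of at least 10 RPM. That median lies between miR-148b-3p (-0.23) and miR-152-3p (0.10) and is the value of no arm. It gives each arm equal weight, although miR-148a-3p, at -0.27, held nearly all reads of the family.

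**Figure D2:**
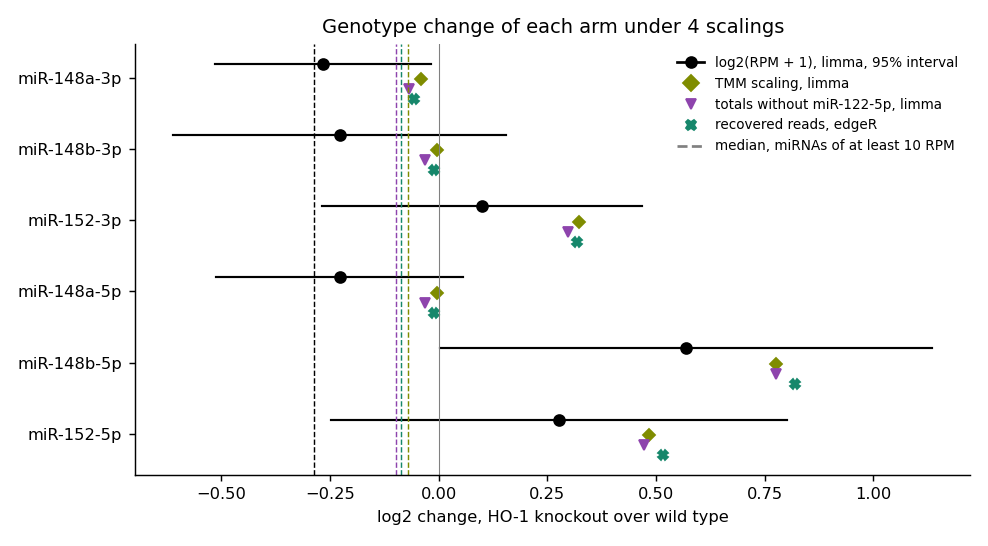
Log2 change of each arm, HO-1 knockout over wild type. Black circles with 95% intervals are the limma values on log2(RPM + 1), coloured symbols are other scalings, and each dashed line is the median of miRNAs of at least 10 RPM in the scaling of the same colour. With RPM, TMM, totals without miR-122-5p and edgeR, the 4 drawn, miR-152-3p, miR-148b-5p and miR-152-5p lie right of zero and the other arms left of it, although miR-148b-3p and miR-148a-5p were at 0.011 to 0.029 with RLE scaling, totals without the 10 most abundant miRNAs and DESeq2, which are not drawn.

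**Figure D3:**
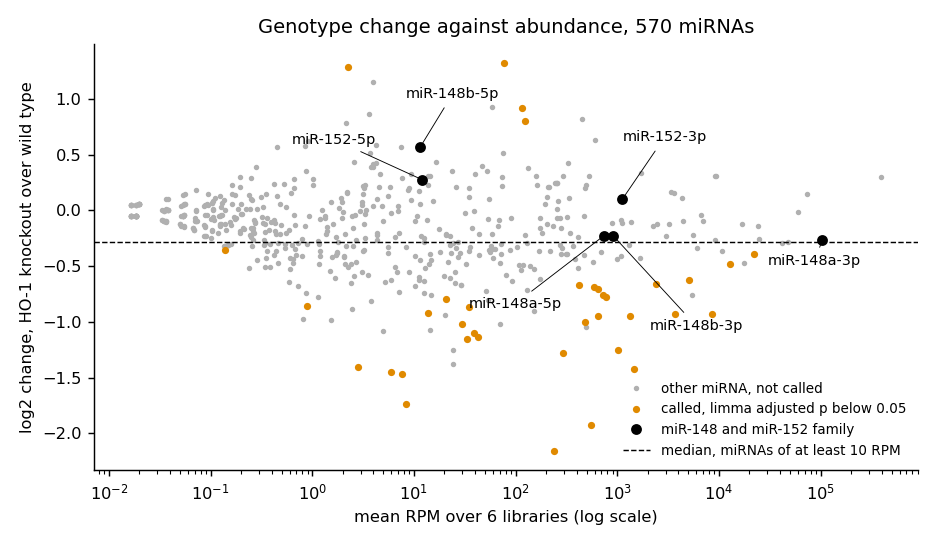
Log2 change (HO-1 knockout over wild type, on log2(RPM + 1)) against mean RPM on a log axis, with 1 point per miRNA. Orange points passed limma at an adjusted p below 0.05, black points are the 6 family arms, and the dashed line is the median of -0.29. No black point is a called one, and miR-148a-3p lies on the median line at the right edge of the abundance range.

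The share of the 5p arm within a hairpin does not depend on the library total. For miR-148b the 5p arm made up 1.77% (Wilson 95% interval 1.47 to 2.14), 1.43% (1.21 to 1.67) and 1.74% (1.46 to 2.06) of both arms' reads in knockout libraries 1 to 3. In WT libraries 1 to 3 it made up 1.06% (0.88 to 1.28), 0.93% (0.76 to 1.14) and 0.77% (0.60 to 0.99). All knockout libraries lay above all WT libraries. The means were 1.65% ± 0.19 in the knockout and 0.92% ± 0.15 in WT, a difference of 0.72 points (SD, n = 3 each). The exact permutation test, two-sided, gave p = 0.1, its minimum here, and 0.25 after adjustment over 10 shares and ratios.

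Among 113 hairpins with both arms above 0 in every library, 15.9% had a 5p share that was higher in all knockout libraries, and miR-148b was one of these 18. The other hairpins of the family had overlapping groups. For miR-152 the 5p share was 1.15% ± 0.25 in the knockout and 0.99% ± 0.04 in WT (SD, n = 3 each; exact p = 0.4, adjusted 0.57), and without knockout library 3 the difference of 0.16 points became 0.036 points. For miR-148a it was 0.72% ± 0.03 in the knockout and 0.70% ± 0.10 in WT (SD, n = 3 each; exact p = 0.9, adjusted 1).

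**Figure D4:**
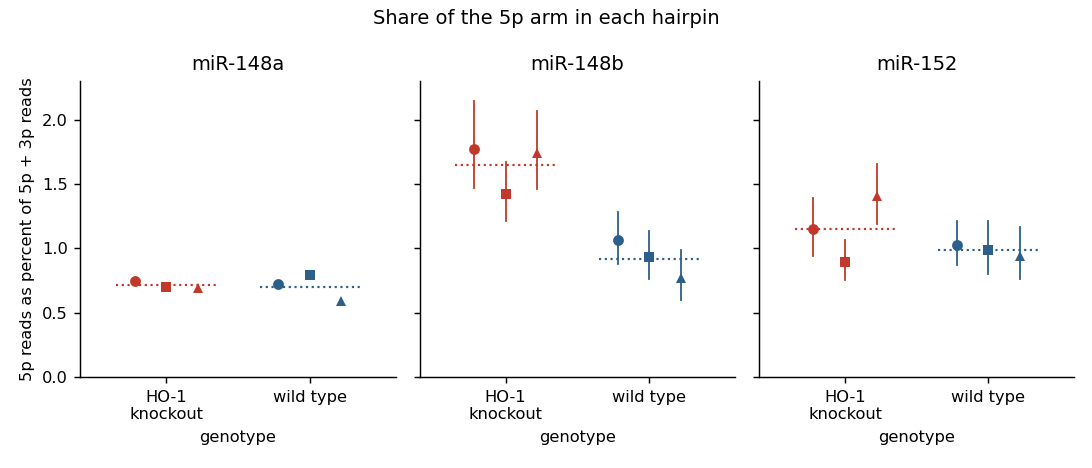
Reads of the 5p arm as a percent of the reads of both arms, for each hairpin and library, with Wilson 95% intervals as vertical lines (shorter than the symbols for miR-148a) and dotted lines at the means of 3 libraries. Circles, squares and triangles are libraries 1, 2 and 3. The miR-148b points lie at 1.43% to 1.77% in HO-1 knockout and at 0.77% to 1.06% in wild type, and the groups overlap for the other hairpins.

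Ratios between arms asked whether paralogs differed between genotypes by unequal amounts. miR-148a-3p was 83.5, 77.1 and 85.1 times as abundant as miR-152-3p in knockout libraries 1 to 3, against 91.8, 104 and 123 times in WT libraries 1 to 3. Every knockout ratio was lower, by a mean of 0.37 on the log2 scale (-0.37; exact permutation p = 0.1, the minimum here, adjusted p = 0.25). Of the 217 miRNAs of at least 10 RPM other than miR-152-3p, 47.5% had a ratio to miR-152-3p that was lower in all knockout libraries. This count includes miR-148a-3p and miR-148b-3p themselves.

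The ratio of miR-148b-3p to miR-152-3p was 0.68, 0.74 and 0.75 in knockout libraries 1 to 3, against 0.79, 1.09 and 0.87 in WT libraries 1 to 3. It was also lower in every knockout library, with a log2 difference of -0.33 (exact p = 0.1, adjusted p = 0.25). Without WT library 2, which had the highest ratio, the difference was -0.19. miR-148a-3p and miR-148b-3p kept no such separation from each other. Their ratio averaged 113 ± 9.32 in the knockout and 117 ± 23.2 in WT (SD, n = 3 each), a log2 difference of -0.04 (exact two-sided permutation p = 0.9).

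miR-148a-3p was also set against miR-122-5p and against miR-192-5p, known from gut, liver and kidney epithelium. Its ratio to miR-122-5p averaged 0.22 ± 0.04 in the knockout and 0.32 ± 0.04 in WT (SD, n = 3 each). That ratio was lower in every knockout library, with a log2 difference of -0.57 (exact p = 0.1, adjusted p = 0.25). Of 217 miRNAs of at least 10 RPM, miR-148a-3p included, 61.3% had a ratio to miR-122-5p that was lower in all knockout libraries. The ratio of miR-148a-3p to miR-192-5p averaged 2.21 ± 0.26 in the knockout and 2.18 ± 0.28 in WT, with a log2 difference of 0.02 (exact two-sided permutation p = 1, n = 3 each). Of the 10 shares and ratios compared, 4 had groups that did not overlap. The 26% of single RPM entries without overlap is not a like background for ratios. Ratios to miR-152-3p and to miR-122-5p were lower in all knockout libraries for 47.5% and 61.3% of 217 miRNAs.

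**Figure D5:**
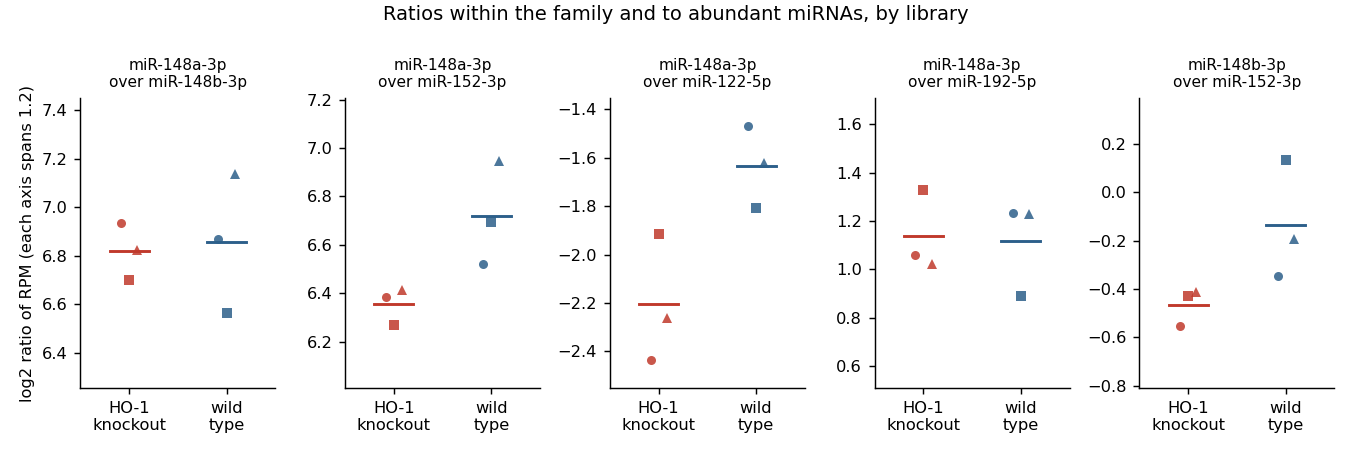
Log2 ratio of RPM by library in 5 panels, each spanning 1.2 on its axis, with symbols and colours as in the plot of levels and bars at the means of 3 libraries. HO-1 knockout and wild type separate in the ratios of miR-148a-3p to miR-152-3p and to miR-122-5p and in that of miR-148b-3p to miR-152-3p, and overlap in the others.

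Markers of other cell types also differed between genotypes. On RPM, 3 of 5 fibroblast and smooth muscle miRNAs fell (limma adjusted p below 0.05), and the list summed to 6606 to 8802 RPM in the knockout against 11804 to 18895 RPM in WT. Of 5 epithelial miRNAs of the miR-200 family, 3 fell, and the list summed to 452 to 524 RPM in the knockout and 1005 to 1700.2 RPM in WT. The others did not pass. miR-200c-3p was higher in the knockout (log2 change 0.35, limma adjusted p = 0.36), and miR-141-3p had a log2 change of -0.09 (limma adjusted p = 0.85). Both endothelial miR-126a arms fell (19147 to 21287 RPM in the knockout, 25222 to 26982 RPM in WT). The call of miR-126a-3p was lost in 12 of 16 alternatives. Among them were TMM scaling (limma adjusted p = 0.53), RLE scaling, totals without miR-122-5p or without the 10 most abundant miRNAs, the replicate block, edgeR and DESeq2. miR-199a-3p was not called with a pseudocount of 5 (limma adjusted p = 0.069) or with the replicate block (limma adjusted p = 0.053). Of the 8 calls of these lists, only that of miR-200b-3p stood in all 6 fits with 1 library left out. The call of miR-200a-3p was lost without knockout library 3, and that of miR-126a-5p without knockout library 1 or 3 or WT library 2. miR-143-3p lost its call in all but the fits without knockout library 2 or WT library 3, and miR-145-5p in all but those without knockout library 1 or 3. miR-199a-3p kept its call only without WT library 1, and miR-126a-3p only without knockout library 2. miR-429 kept its call only without WT library 2. The limma adjusted p of these lost calls was at most 0.18 for miR-199a-3p and 0.13 for miR-143-3p and miR-429. None of 5 leukocyte and none of 3 red blood cell miRNAs passed on RPM. List members not called on RPM were not examined in the other settings. The leukocyte list summed to 836 to 946 RPM in the knockout and 787 to 896 RPM in WT, and the red blood cell list to 353 to 436 RPM in the knockout and 437 to 541 RPM in WT. Of the 4 matched arms of miR-192 and miR-194, 1 fell, miR-194-5p. Its call was lost in the same 12 of 16 alternatives as that of miR-126a-3p, TMM scaling included (limma adjusted p = 0.24). With 1 library left out it stood only in the fit without knockout library 2. The 4 arms summed to 50869 to 55452 RPM in the knockout and 65508 to 70972 RPM in WT. The part of these cell types in the values of the family was not tested.

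Other miRNAs known to act on the same targets were then compared. Of the miR-29 family, which represses DNA methyltransferases in human cells, 1 of 3 guide strands rose on RPM and 2 did not pass. miR-29b-3p rose to 150.2 ± 17.2 RPM in the knockout against 79.2 ± 7.92 RPM in WT, with a log2 change of 0.91 (SE 0.15, n = 3 each; limma adjusted p = 0.016), a call lost without knockout library 2 or 3 or WT library 2 (adjusted p up to 0.085). miR-29a-3p, the most abundant of them, stood at 4309 ± 521 RPM in the knockout and 4593 ± 228 RPM in WT (limma adjusted p = 0.64).

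None of 7 miRNAs tied to the LDL receptor or ABCA1 in mouse or human passed limma on RPM. Members of this list were not examined with other scalings, filters or tools. Their median log2 change of -0.05 was that of miR-301b-3p, with means of 0.03 RPM in the knockout and 0.07 RPM in WT. That median therefore does not describe the abundant members of the list. The most abundant was miR-27b-3p, at 4081 ± 874 RPM in the knockout and 6922 ± 1416 RPM in WT (log2 change -0.76, SE 0.19, limma adjusted p = 0.056). miR-128-3p stood at 728 ± 13.6 RPM in the knockout and 479.9 ± 118 RPM in WT (log2 change 0.63, SE 0.18, limma adjusted p = 0.091).

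In the authors' deposited table, which gives its own log2 fold changes and p-values without naming the test, miR-148b-5p had a log2 fold change of 0.59 and p = 0.0017. The authors' deposited table gave miR-152-3p a log2 fold change of 0.10 with p = 0.040 and miR-152-5p one of 0.29 with p = 0.041. For miR-148a-3p, the authors' deposited table gave a log2 fold change of -0.26 with p = 0.71. In that table the smaller p-values thus belonged to the arms with a positive fold change, and the larger ones to the arms with a negative one.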

How the data were processed

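Small RNA libraries were prepared from 1 μg of total RNA with a ligation-based kit and read as single ends of 50 bases, per the labels' protocols. The authors deposited 1 table of RPM per library, rounded to 2 decimals, beside their mean RPM per genotype, log2 fold change and p-value, per the file headers. The submitters' processing notes name FastQC, BWA, edgeR and rn6, with no role. Aligner settings and the miRNA annotation were not given in the sources used here.

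All 6 value columns matched a sample by name (0 unmatched). The main test was limma 3.58.1 on log2(RPM + 1), with a mean-variance trend and a single term for genotype. It covered the 570 entries that were above 0 somewhere, and Benjamini-Hochberg adjustment ran over all of them. Single shares and ratios were compared by exact two-sided permutation of 3 against 3 libraries (scipy 1.17.1). Reads were recovered as whole multiples of 1 step per library. Of the values above 0, 97.8% to 98.9% lay within 0.0051 RPM of a whole read, and the reads of each library summed to its total. The step of WT library 1, 0.0996 RPM, is so near 0.1 that its total rests on higher values. These reads were used for intervals and for edgeR 4.0.16 and DESeq2 1.42.0, run as alternatives only. Fits were tested on simulated data. The limit that a count of 0 allows, 3 reads, is 0.299 to 0.361 RPM per library.

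Every arm of the family is named, together with abundance neighbours, the 3 most similar miRNAs of each 3p arm, up to 4 members of each list, and no further seed sharers since none were found. The epithelial list is an exception, with all 5 members named, and miR-301b-3p is named because it gave the median of its list. The members, lists and rules were chosen with earlier results of these data known, and the backgrounds of hairpins and ratios were added after the values were seen. Precursor positions come from a RefSeq table on GRCr8, which differs from rn6, so no coordinates are printed.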

Additional observations from a re-analysis of the deposited data

How the results depend on the processing

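The number of called miRNAs, 36, became 55 with totals that left out the 10 most abundant miRNAs, 61 in edgeR and 72 in DESeq2, and ran from 5 to 26 with 1 library left out (13, 21 and 5 without knockout libraries 1, 2 and 3, and 17 without WT library 2). None of the 6 arms was called in any of the 6 fits with a library left out. miR-148b-5p passed with TMM (log2 change 0.78), RLE (0.79), totals without the 10 most abundant miRNAs (0.87), edgeR (0.82) and DESeq2 (0.84), and miR-152-3p in DESeq2 (0.34). The sign turned for miR-148b-3p with RLE (0.012), totals without the 10 most abundant (0.029) and DESeq2 (0.011), and for miR-148a-5p with RLE (0.012), totals without the 10 most abundant (0.029) and DESeq2 (0.011). These scalings moved the median of miRNAs of at least 10 RPM by 0.22 to 0.25, and whether this shift accounts for the turned signs was not tested.

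With 1 library left out, log2 changes ran from -0.36 to -0.20 for miR-148a-3p, -0.38 to -0.10 for miR-148b-3p, -0.034 to 0.23 for miR-152-3p, -0.32 to -0.17 for miR-148a-5p, 0.36 to 0.69 for miR-148b-5p and 0.18 to 0.42 for miR-152-5p. The difference in the 5p share of miR-148b ran from 0.65 to 0.84 points, that of miR-148a from -0.043 to 0.059 points and that of miR-152 from 0.036 (without knockout library 3) to 0.29 points. The difference in the share of miR-148a-3p within the family ran from -0.43 to -0.087 points (without WT library 3), and that of the family's share of reads from -2.54 to -1.44 points. The log2 difference of miR-148a-3p to miR-152-3p ran from -0.47 to -0.25, to miR-148b-3p from -0.18 to 0.10, to miR-122-5p from -0.71 to -0.45 and to miR-192-5p from -0.093 to 0.078. That of miR-148b-3p to miR-152-3p ran from -0.43 to -0.19, the last without WT library 2. Whether replicate numbers pair the libraries could not be settled. Same-numbered deviations correlated at 0.033, 0.18 and 0.20, and differently numbered ones at -0.29 to 0.060. Knockout library 1 had r = 0.043 with WT library 3, close to its 0.033 with WT library 1. The replicate block gave 22 calls and none in the family. Reads limit the rare 5p arms, whose shares had Wilson intervals up to 0.68 points wide.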
